A study of Rattus norvegicus with 8 samples.

Results

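The genes described here carry ammonia production and bicarbonate reabsorption in the kidney. They are Glud1, Pck1, Slc38a3, Slc4a4, Car4, Rhcg and Rhbg, and every probe set annotated with exactly 1 of these symbols was taken. This gave 9 of the 31099 probe sets of the array, for 6 of the 7 genes. No probe set is named Rhbg in the annotation used here, so Rhbg was not analysed here. RNA of whole kidney came from male Wistar rats aged 8 weeks, with 1 rat per array. The control group (4 rats) was fed an AIN-93G diet with 0.3% phosphorus, and the high phosphorus (HP) group (4 rats) the same diet with 1.2% phosphorus, both for 24 days. The additional phosphorus was given as KH2PO4 in place of corn starch, so the HP diet also held more potassium. The authors chose average animals from each group for the arrays, and the spread between arrays is therefore that of selected rats.

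When the body must excrete acid, proximal tubule cells take glutamine from the blood through the transporter SNAT3 (Slc38a3) and release its nitrogen as ammonium, in part by the mitochondrial enzyme glutamate dehydrogenase (Glud1). The remaining carbon skeleton passes through phosphoenolpyruvate carboxykinase (Pck1) on its way to glucose, and new bicarbonate is formed. Filtered bicarbonate is recovered in the same cells. Carbonic anhydrase IV (Car4), anchored in the cell membrane, speeds the conversion between bicarbonate and carbon dioxide at the surface, and the sodium bicarbonate cotransporter NBCe1 (Slc4a4) carries bicarbonate across the basolateral membrane to the blood. In the collecting duct the Rh glycoproteins Rhcg and Rhbg let ammonia pass into the urine. Metabolic acidosis is known to raise Slc38a3, Glud1 and Pck1 in the rat kidney, and urinary phosphate is itself a buffer that carries acid.

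The values, taken as log2 because the base of their log scale is not given, had been summarized for each probe set over all 8 arrays together by the distribution free weighted method (DFW), which pulls the values of a probe set toward each other. Differences between arrays are thus very small and are no log2 fold changes. They are given below in millionths of a log2 unit, measured from the mean of the 4 control arrays, and as the standardized difference, which is the difference between diets (HP minus control) divided by the pooled SD within diets. Over all tested probe sets the median SD within diets was 2.22 millionths. Levels served to choose or filter probe sets and to mark a dim one, and genes were not compared by level. Limma was fitted across the 31042 probe sets that are not Affymetrix controls, with Benjamini-Hochberg adjustment over all of them and a threshold of 0.05. With 4 arrays on each diet, precision is limited by their number.

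None of the 9 probe sets passed limma's threshold, while 2.95% of all tested probe sets were called higher and 1.13% lower on the HP diet. At an unadjusted p under 0.05 there was 1 higher (Glud1) and 1 lower (Car4), where 9.53% of all probe sets were higher and 9.45% lower. With rank products, the method of the study, at an FDR under 0.05, no probe set was called higher and 2 were called lower (1 each of Car4 and Slc4a4), against 3.4% higher and 2.31% lower of all probe sets. The difference was positive in 3 probe sets, those of Glud1 and Pck1, and negative in the other 6. Standardized differences ran from -2.90 to 2.11 with a median of -0.52, beside a median of -0.21 over all probe sets. All probe sets called by limma had an absolute standardized difference of at least 3.23.

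**Figure D1:**
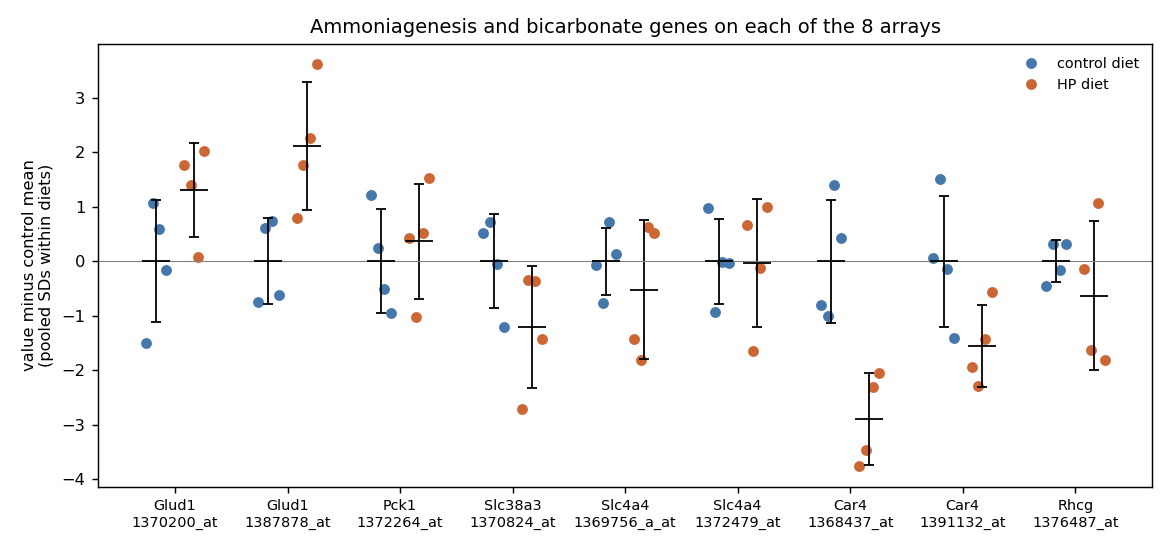
Value of each probe set on each array minus the control mean, in pooled SDs within diets (vertical axis), for the control diet (blue) and the HP diet (orange). Horizontal bars are group means and vertical bars SDs (n = 4 per diet). The diets do not overlap in Glud1 1387878_at and Car4 1368437_at, and they overlap in the other 7 probe sets.

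Car4 stood farthest from the controls. On the control arrays (replicates 1 to 4) its probe set 1368437_at, with a mean level of 9.19, lay at -14.0, -17.4, 24.2 and 7.19 millionths, and on the HP arrays at -64.8, -59.8, -39.7 and -35.2. All 4 HP arrays were below all control arrays, as was the case in 5.81% of all probe sets. The difference was -49.9 millionths (SE 12.2, limma 95% interval -77.1 to -22.6), a standardized difference of -2.90, which missed the threshold with an adjusted p of 0.068 in limma. Full separation of the diets fixes the exact two-sided permutation p at 0.029, the smallest that the 70 arrangements of the arrays allow, and this p holds no more than the separation itself. Rank products gave an FDR of 0.0075 for a lower value. This method ranks raw differences and so depends on the spread of a probe set. Of all probe sets, 92.5% have a smaller pooled SD than this one. The other Car4 probe set, 1391132_at, has a mean level of 6.30 and is dim, as only 13.2% of all probe sets have a lower level. Its values were 0.473, 13.2, -1.28 and -12.4 millionths on the control arrays and -17.0, -19.9, -12.5 and -4.97 on the HP arrays. Here 3 of the 4 HP arrays were below every control array and the fourth lay among them. The difference was -13.6 millionths (SE 6.17, standardized difference -1.56, adjusted p = 0.27 in limma). Both Car4 probe sets were thus lower on average on the HP diet, and limma called neither.

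In whole kidney, fewer cells of a type and less RNA per cell cannot be told apart. Of 12 markers of the proximal tubule, where Car4 is abundant, 1 fell in limma (Slc27a2, a fatty acid transporter and acyl-CoA synthetase, adjusted p = 0.039), none rose and 11 were not called, with a median standardized difference of -1.35. The Slc27a2 call was lost without any 1 array (adjusted p 0.059 to 0.097). As a mean over the list, these markers lay at -0.28 to 0.58 pooled SDs on the control arrays and at -2.27 to -0.43 on the HP arrays. None of the 5 endothelial markers passed limma (none at an unadjusted p under 0.05 and none by rank products), and their scores overlapped (-0.74 to 0.79 and 0.10 to 0.79). Carbonic anhydrase IV is also known from capillary endothelium. The part of either cell type in the Car4 values was not tested.

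Slc4a4, the bicarbonate exit pathway, was measured by a pair of probe sets that differ in spread. Probe set 1369756_a_at (mean level 10.3) lay at -17.9, -213, 196 and 35.5 millionths on the control arrays and at -391, -498, 174 and 140 on the HP arrays. HP replicates 1 and 2 were below all controls, while HP replicates 3 and 4 lay within the range of the controls. The difference of -144 millionths (SE 194, limma 95% interval -579 to 292) was smaller than its SE, and the adjusted p was 0.75 in limma. It rested on single arrays, since it was -25.7 millionths without HP replicate 2, -61.4 without HP replicate 1, -78.4 without control replicate 3, -238 without HP replicate 4 and -249 without HP replicate 3. Rank products called this probe set lower (FDR 0.026). It has a pooled SD of 275 millionths, and 99.2% of all probe sets have a smaller one. For 1372479_at (mean level 11.9) the control arrays were at 21.9, -20.7, -0.512 and -0.673 millionths and the HP arrays at 14.8, -37.0, -2.92 and 22.1. The diets overlapped almost fully, with a difference of -0.758 millionths (SE 15.8, 95% interval -36.1 to 34.6, adjusted p = 0.99 in limma). In SD units this interval ran from -1.62 to 1.55, which gives the shifts of either sign that these arrays do not exclude.

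Among the genes of ammonia production, Glud1 was also measured by a pair of probe sets. Probe set 1387878_at (mean level 11.91) lay at -0.948, 0.783, 0.942 and -0.778 millionths on the control arrays and at 1.01, 2.24, 2.86 and 4.58 on the HP arrays. Every HP array was above every control array, as in 7.09% of all probe sets, but the gap between the highest control and the lowest HP array was only 0.07 millionths. The difference was 2.68 millionths (SE 0.896, 95% interval 0.569 to 4.78), a standardized difference of 2.11, and the adjusted p was 0.17 in limma. The other probe set, 1370200_at (mean level 12.09), lay at -1.52, 1.09, 0.6 and -0.17 millionths on the control arrays and at 1.79, 1.42, 0.08 and 2.05 on the HP arrays. Here HP replicates 1, 2 and 4 exceeded every control and HP replicate 3 did not. The difference was 1.33 millionths (SE 0.718, standardized difference 1.31, adjusted p = 0.39 in limma). Centring each array on its median shifted all probe sets alike, and the median difference over all of them went from -0.224 to -61.3 millionths. Both Glud1 differences were then negative (-58.4 millionths for 1387878_at and -59.7 for 1370200_at), as any difference this small would be, and both still lay above that median.

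**Figure D2:**
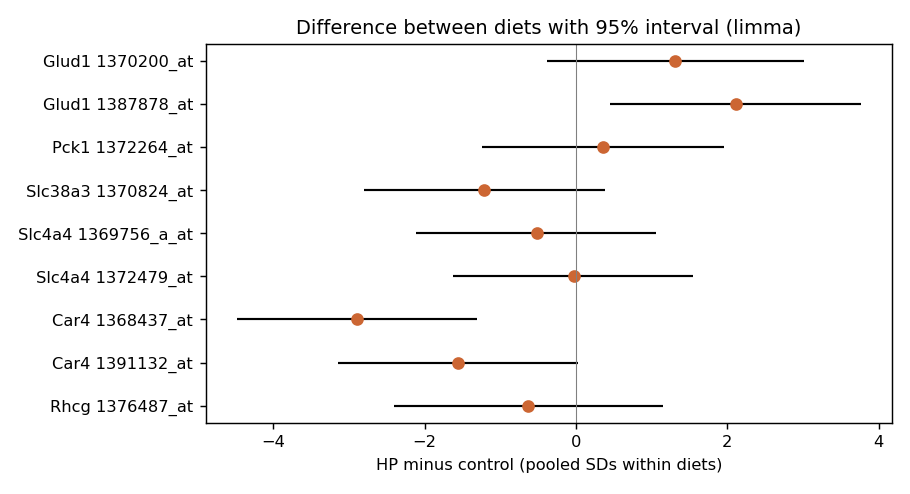
HP minus control for each probe set in pooled SDs within diets (points, horizontal axis), with limma's 95% interval (lines, not adjusted for the number of probe sets tested). The interval lies above 0 for Glud1 1387878_at (0.45 to 3.77) and below 0 for Car4 1368437_at (-4.48 to -1.31), and the other 7 include 0.

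Pck1, the enzyme at the entry to gluconeogenesis, did not separate the diets. Its single probe set 1372264_at (mean level 13.66) lay at 3.69, 0.705, -1.51 and -2.87 millionths on the control arrays and at 1.27, -3.07, 1.57 and 4.62 on the HP arrays. Both the lowest and the highest of the 8 arrays came from HP rats (replicates 2 and 4). The difference was 1.09 millionths (SE 2.13, 95% interval -3.73 to 5.92, adjusted p = 0.84 in limma). Its direction rested on single arrays, since it was -0.0817 millionths without HP replicate 4 and 2.48 without HP replicate 2. With the common shift of median centring it was -60 millionths, beside the median of -61.3 over all probe sets.

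Slc38a3, which brings glutamine into the cell, was measured by 1370824_at (mean level 9.10). The control arrays lay at 2.64, 3.62, -0.224 and -6.04 millionths and the HP arrays at -13.6, -1.76, -1.82 and -7.15. All HP arrays were below control replicates 1, 2 and 3, but only HP replicates 1 and 4 were below control replicate 4. The difference was -6.08 millionths (SE 3.55, 95% interval -14.1 to 1.89), a standardized difference of -1.21 with an adjusted p of 0.4 in limma. Of the glutamine pathway, Slc38a3 and Glud1 thus had differences of opposite sign, and none was called.

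Rhcg, the ammonia channel of the collecting duct, was measured by 1376487_at (mean level 9.17). On the control arrays it lay at -0.358, 0.242, -0.131 and 0.249 millionths and on the HP arrays at -0.119, -1.28, 0.841 and -1.42. HP replicates 2 and 4 were below and HP replicate 3 above all controls. The SD was 0.298 millionths on the control diet and 1.06 on the HP diet, and the difference of -0.494 millionths (SE 0.552, 95% interval -1.89 to 0.897) had an adjusted p of 0.73 in limma. Rhcg lies in intercalated and principal cells. All 6 measured intercalated cell markers had negative differences, with scores of -0.28 to 0.53 on the control arrays and -2.05 to -1.17 on the HP arrays, but none passed limma. The one with the smallest p was Slc26a4, the chloride bicarbonate exchanger pendrin (standardized difference -2.99, adjusted p = 0.063). At an unadjusted p under 0.05 there were 3 lower, and rank products called 1 lower. Of 6 principal cell markers, 1 rose, the sodium channel subunit Scnn1b (standardized difference 3.53, adjusted p = 0.044 in limma). Its call was lost on leaving out any array but 1 (up to 0.11, without HP replicate 1). With the common shift of median centring its difference was -56.4 millionths, beside the median of -61.3 over all probe sets. Avpr2, another of the 6, differed in the other direction (standardized difference -1.83, unadjusted p = 0.03 and adjusted p = 0.2 in limma). Rank products called none of the 6 (FDR 0.68 for a higher value of Scnn1b). The part of either cell type in the Rhcg values was not tested.

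The arrays of the HP group varied more than those of the control group in 6 of the 9 probe sets, which was the case in 50.5% of all probe sets. The ratio of the SDs was highest for Rhcg (3.57) and lowest for Car4 1391132_at (0.622). HP replicate 2 was the lowest of the 8 arrays in 4 of the 9 probe sets (Pck1, both of Slc4a4 and Car4 1391132_at), and among all probe sets in 14.5%. HP replicate 4 was the highest in 4 (both of Glud1, Pck1 and Slc4a4 1372479_at), and among all probe sets in 8.36%. Likeness of patterns was measured by the mean absolute difference of z scores over the 8 arrays, and the brightest probe set of each gene was used. The median of this difference to all probe sets with 1 gene was 1.10. The other probe set of the same gene differed by 0.631 for Glud1, 0.774 for Slc4a4 and 0.689 for Car4. Probe sets of other genes came closer, as can occur among so many. The closest one to Car4 was Paqr9 (0.069), a probe set that was not called either (standardized difference -3.17, adjusted p = 0.053 in limma). For Slc4a4 it was Slc7a9 (0.142), which encodes the cystine transporter subunit of the proximal tubule, for Glud1 Pola2 (0.125), for Slc38a3 Chst8 (0.168), for Pck1 Prr35 (0.230) and for Rhcg Klk8 (0.257).

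Other genes of acid-base handling were described with 5 lists, which held 82 genes. Of these, 69 were measured, each taken by its probe set of highest mean. In limma 5 of the 69 fell (7.25%, against 1.13% of all probe sets), none rose and 64 were not called. The median standardized difference was -0.61. With limma fitted to 1 probe set per gene, 7 of the 69 fell, against 1.91% of all genes. The lists were chosen with earlier results of these data known, so these counts are no independent evidence. The count of 5 fell whenever 1 array was left out. It was 1 without control replicate 1, control replicate 3 or HP replicate 1. It was 2 without control replicate 2, control replicate 4 or HP replicate 2, 3 without HP replicate 4 and 4 without HP replicate 3. Lower calls over all probe sets, 350 with all arrays, also fell on each removal. The fewest were 79 (control replicate 3 left out) and the most 219 (HP replicate 3 left out). The smaller counts are thus not specific to the lists. After median centring the count of the lists was 0.

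Of 19 genes of ammoniagenesis and gluconeogenesis, 3 fell and 16 were not called, with a median standardized difference of -1.61. Over all 26 probe sets of these genes limma called 4 lower, which includes a dimmer probe set of a gene not called here. Slc37a4, which carries glucose 6-phosphate into the endoplasmic reticulum for the last step of glucose production, fell by 77.4 millionths (SE 14.1, standardized difference -3.89, adjusted p = 0.03 in limma). Pcx, the pyruvate carboxylase that supplies oxaloacetate, fell by 54.8 (SE 11.6, standardized difference -3.34, adjusted p = 0.046). Slc25a11, the mitochondrial 2-oxoglutarate carrier, fell by 3.3 millionths (SE 0.468, standardized difference -4.99, adjusted p = 0.024). Calls were lost without 1 array in 5 of 8 cases for Slc37a4 (adjusted p up to 0.09, without control replicate 3). They were lost in 7 for Pcx (up to 0.12, without HP replicate 1) and in 6 for Slc25a11 (up to 0.068, without HP replicate 1). Rank products called 3 of the 19 genes lower. Slc37a4 (FDR 0.0022) and Pcx (FDR 0.0057) were among them, with a gene that limma did not call, but Slc25a11 was not (FDR 0.89).

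Of 11 genes of bicarbonate reabsorption, 1 fell and 10 were not called. This was Slc9a3, the apical sodium proton exchanger NHE3 that starts bicarbonate recovery, and its difference was -92.5 millionths (SE 16.2, standardized difference -4.04, adjusted p = 0.027 in limma). All HP arrays were below all control arrays, as in 5.81% of all probe sets and in every other called gene of the lists. Leaving out single arrays ended this call in 7 of 8 cases, and the adjusted p reached 0.083 (control replicate 3 left out). Among 20 genes of acid sensing and regulation 1 fell and 19 were not called. It was Cryz, the zeta-crystallin, a quinone reductase that also binds RNA, and both of its probe sets fell. The brighter fell by 7.06 millionths (standardized difference -5.82, adjusted p = 0.012 in limma), and the other fell by 17.3 (standardized difference -3.59, adjusted p = 0.038). The call of the brighter one was kept without any 1 array (adjusted p up to 0.043). Rank products did not call this probe set lower (FDR 0.42), but called 1 other gene of acid sensing and regulation lower. Of the genes of bicarbonate reabsorption they called 3 lower, among them Slc9a3 (FDR 0.0014). Limma called none of the others.

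None of the 9 genes of glutamine and amino acid entry passed limma's threshold, and the smallest p was that of Slc1a1, the glutamate transporter EAAC1 (standardized difference -2.95, adjusted p = 0.065). There were 2 genes at an unadjusted p under 0.05 and 1 called lower by rank products. None of the 10 genes of ammonium transport beyond the proximal tubule passed either, with none at an unadjusted p under 0.05 and none called by rank products. The smallest p there was that of Kcnj1, the potassium channel ROMK (standardized difference -0.97, adjusted p = 0.5 in limma). Under the common shift of median centring any negative difference stays negative. Those of the called genes were then -138 millionths for Slc37a4, -116 for Pcx, -64.4 for Slc25a11, -154 for Slc9a3 and -68.1 for Cryz. The median over all probe sets was -61.3, and the adjusted p was 0.98 for each of these genes in limma.

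**Figure D3:**
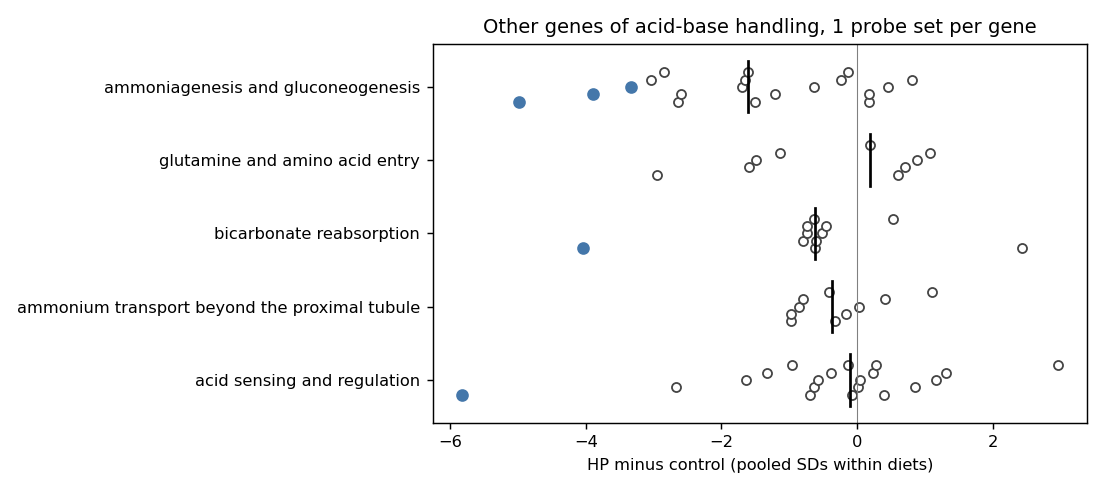
HP minus control in pooled SDs within diets (horizontal axis) for the 69 other measured genes of 5 acid-base lists, 1 probe set per gene. Filled points passed limma at an adjusted p under 0.05 (5, all lower), open points did not, and vertical bars mark list medians, from -1.61 for ammoniagenesis and gluconeogenesis to 0.19 for glutamine and amino acid entry.

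Other marker lists held most of the calls among markers. In limma 7 of 8 macrophage markers rose, 5 of 7 fibroblast markers and 5 of 7 markers of injured tubules, and none fell. Of all probe sets, 2.95% were called higher and 1.13% lower. Some calls were lost without 1 array, in 7 of 8 cases for Cd74, 6 for Cd68 and Krt8, 5 for Csf1r and 4 for Clu. The other called markers of these lists kept theirs. The scores of these lists ran from -0.51 to 0.65 and from 3.52 to 6.28 for macrophages (control and HP arrays), from -0.75 to 0.59 and from 4.74 to 5.39 for fibroblasts, and from -0.24 to 0.15 and from 4.56 to 6.57 for injured tubules. None of the 7 markers of the thick ascending limb and distal tubule, the 4 of podocytes, the 6 of adipose tissue, a tissue next to the kidney that also uses Pck1, and the 5 of the adrenal gland passed limma. At an unadjusted p under 0.05 there were 3 of adipose tissue (Fabp4 and Cfd higher, Lep lower) and 1 of the thick ascending limb and distal tubule, and rank products called 2 of adipose tissue (both higher) and none of the others. The part of these cells in the values of the ammonia and bicarbonate genes was not tested.

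**Figure D4:**
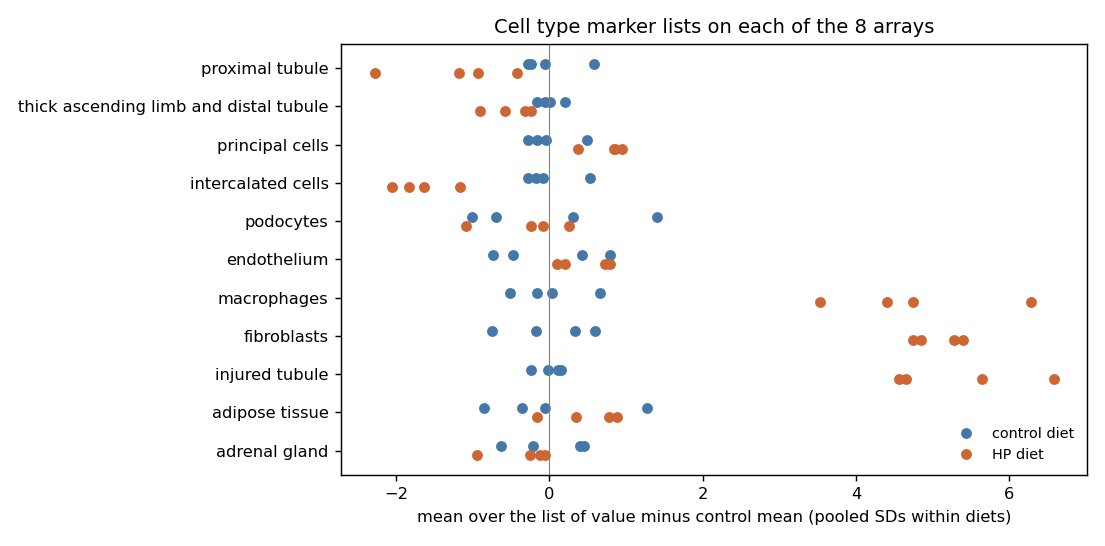
Mean over each cell type marker list of the value minus the control mean, in pooled SDs within diets (horizontal axis), on each control (blue) and HP (orange) array. The HP arrays lie at 3.52 or more for macrophages, fibroblasts and injured tubules, and for the proximal tubule between -2.27 and -0.43.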

How the data were processed

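Kidney RNA was hybridized to Affymetrix rat expression arrays, and the authors summarized the probes over all arrays with DFW in R and Bioconductor (versions not given in the sources used here). These deposited DFW values, log2 as read here since the authors' log base is not given, were used with no further normalization or filter. Probe sets were named from the platform annotation: 20826 had 1 gene, 436 had several and 9780 had none. The genes and lists were chosen with earlier results of these data known, and list genes were also found through RefSeq synonyms (GRCr8, 3 genes).

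The 4 control and 4 HP arrays were compared with limma 3.58.1 in R 4.3.3 (lmFit and eBayes, prior degrees of freedom 0.772). Every adjusted p is limma's. For the 9 probe sets the exact two-sided permutation p was also computed, which full separation of the diets fixes at its smallest value. Rank products used the 16 pairs of arrays and 1000 permutations, with the FDR over all 31099 probe sets. Python 3.11.15, numpy 2.4.6 and pandas 2.3.3 were used. Genes named beside the members were, in each list, those called (up to 4) or else the one of smallest p, in the marker lists up to 2 of smallest p, and the gene of the most similar pattern. Alternatives were quantile normalization, median centring, other moderation or none, a filter that drops the dimmest 25% of probe sets, 1 probe set per gene, array weights, the replicate number as a block and removal of each array. In 32 groups of 4 arrays no single array was past Dixon's critical value. The tests were checked on simulated data. Blood, urine and histology were not analysed here.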

Additional observations from a re-analysis of the deposited data

How the results depend on the processing

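Limma called none of the 9 probe sets of the ammonia and bicarbonate genes under any of its alternatives, with the exception of 1 called lower (Car4 1368437_at, adjusted p = 0.0472) when the replicate block was fitted, whereas rank products called 2 lower. The labels do not say what the replicate number stands for. Correlations of deviations were 0.001 to 0.121 between same-numbered arrays of the diets (1 of 4 over 0.1). Between differently numbered arrays they were -0.165 to 0.084. The block lowered the calls over all probe sets from 1265 to 369. For Car4 1368437_at the adjusted p was 0.0895 to 0.155 without 1 array, and 0.0502 with 1 probe set per gene. After quantile normalization all 9 probe sets had the same value on all 8 arrays (35.9% of all probe sets did), so the difference was 0. The permutation p was then 1 for both Car4 1368437_at and Glud1 1387878_at. After median centring it was 0.057 for Car4 and, with the direction reversed, 0.37 for Glud1. Without 1 array it was 0.029 for Car4 and 0.029 to 0.057 for Glud1 (0.057 without HP replicate 4 or any 1 control array). Removing an array cannot end a full separation and leaves fewer arrangements, so these values are no further evidence. In the resulting groups of unequal size, full separation also no longer fixes the permutation p. Median centring moved the median difference over all probe sets to -61.3 millionths and, through this shift common to all, turned Glud1 (-59.7 and -58.4) and Pck1 (-60). The direction of Pck1 also turned without HP replicate 4 (-0.0817, up to 2.48 without HP replicate 2), and that of Slc4a4 1372479_at with array weights (1.6 millionths), without control replicate 1 (6.54) and without HP replicate 2 (11.3; lowest -8.37, without HP replicate 4). Of the other acid-base genes, 5 of 69 were lower. This count was 18 after quantile normalization, which called 24.8% of all probe sets lower (only 1 of the 5 was among the 18, and 3 of the 5 had 1 value on all arrays). It was 0 after median centring, 2 without moderation, 1 with the replicate block, 8 by rank products and 1 to 4 without 1 array. Slc25a11 and Cryz were not among the 8. Of the markers, 18 were higher (8 after median centring, 6 with the replicate block) and 1 was lower (9 after quantile normalization, 0 after median centring or without moderation, 2 with 1 probe set per gene and 0 without any 1 array). The cause of these shifts was not tested. The number of arrays limits what could be detected.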
